A study of Mus musculus with 6 samples.

Results

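The circadian clock genes measured here are 10 genes taken by name: the activators Clock and Arntl (also called Bmal1), the repressors Per1, Per2, Per3, Cry1 and Cry2, the nuclear receptors Nr1d1 and Nr1d2 (REV-ERB alpha and beta), and the output factor Dbp. They are 10 of the 18193 genes that the array names by a single symbol, and they carry 23 probe sets. RNA came from the epithelium of jejunal crypts, the glands at the base of the villi in the middle part of the small intestine. The 3 Sox9-deficient mice (KO 1 to KO 3) and 3 wild-type littermates (WT 1 to WT 3) were all C57BL/6 and 3 months old, and each mouse gave 1 single-colour array. The sources used here name neither the way Sox9 was deleted nor the cells that lost it, and they give no time of day for the collection of tissue. Values are log2 intensities made with GCRMA, so a step of 1 is a doubling, and values of single mice are listed in the order of their numbers.

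The mammalian clock is a loop of transcription and feedback. CLOCK and ARNTL bind E-box sequences together and switch on the Per and Cry genes, whose products then repress them. A further loop runs through NR1D1 and NR1D2, which repress Arntl at ROR elements, and through the D-box factors, where DBP, TEF and HLF activate and NFIL3 represses. In peripheral tissues such as the intestine, Arntl RNA is high at the time of day when Nr1d1 and Dbp RNA are low, and the reverse, so these genes read against each other place a tissue in the daily cycle.

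The windows from 250 bases before to 50 bases after a transcription start were available for 9 of the 10 genes (13 windows, from RefSeq, build GRCm38.p6). They were searched on both strands for the E-box CACGTG, the E-box variant CACGTT, the D-box TTATGTAA or TTACGTAA, and the ROR element core TAGGTCA or TGGGTCA. The E-box and its variant differ in the last base, so no match counts under both. The windows below are shown because their genes differed between mice in the results that follow, and because each holds a match to at least 1 of these motifs. They are a choice, since windows of Per1 and Cry2 also hold a match and are not shown. Capitals mark the match, which appears as its reverse complement where it lies on the other strand.
Arntl, chr7:113207261-113207560, plus strand, ROR element core 30 bases after the start: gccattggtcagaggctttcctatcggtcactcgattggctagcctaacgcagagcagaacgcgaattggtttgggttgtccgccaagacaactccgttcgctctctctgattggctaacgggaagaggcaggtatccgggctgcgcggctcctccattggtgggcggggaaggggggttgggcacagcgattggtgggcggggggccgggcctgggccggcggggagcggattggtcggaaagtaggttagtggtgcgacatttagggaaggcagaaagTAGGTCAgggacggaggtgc
Nfil3, chr13:52980990-52981289, minus strand, ROR element core 12 bases before the start: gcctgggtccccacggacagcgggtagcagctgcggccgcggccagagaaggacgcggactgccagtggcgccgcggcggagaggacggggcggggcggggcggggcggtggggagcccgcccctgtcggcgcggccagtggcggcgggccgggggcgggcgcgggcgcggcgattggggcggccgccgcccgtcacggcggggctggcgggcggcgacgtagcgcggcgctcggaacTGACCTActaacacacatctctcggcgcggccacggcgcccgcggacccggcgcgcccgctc
Nr1d1, chr11:98775328-98775627, minus strand, E-box variant 28 bases before the start: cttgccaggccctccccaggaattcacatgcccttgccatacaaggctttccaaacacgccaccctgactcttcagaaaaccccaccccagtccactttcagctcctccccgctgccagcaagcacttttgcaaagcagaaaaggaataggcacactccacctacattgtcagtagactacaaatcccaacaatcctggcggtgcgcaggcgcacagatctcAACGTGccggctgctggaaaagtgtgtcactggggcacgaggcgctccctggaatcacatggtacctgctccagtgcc
Cry1, chr10:85185005-85185304, minus strand, E-box 60 and E-box variant 79 bases before the start: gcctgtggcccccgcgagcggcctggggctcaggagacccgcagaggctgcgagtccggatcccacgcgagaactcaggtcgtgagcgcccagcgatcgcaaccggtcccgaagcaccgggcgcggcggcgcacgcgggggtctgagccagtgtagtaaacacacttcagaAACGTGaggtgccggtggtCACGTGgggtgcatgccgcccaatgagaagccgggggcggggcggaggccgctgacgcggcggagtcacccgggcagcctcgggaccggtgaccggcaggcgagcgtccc
Per3, chr4:151044616-151044915, minus strand, D-boxes 205 and 158 bases before the start: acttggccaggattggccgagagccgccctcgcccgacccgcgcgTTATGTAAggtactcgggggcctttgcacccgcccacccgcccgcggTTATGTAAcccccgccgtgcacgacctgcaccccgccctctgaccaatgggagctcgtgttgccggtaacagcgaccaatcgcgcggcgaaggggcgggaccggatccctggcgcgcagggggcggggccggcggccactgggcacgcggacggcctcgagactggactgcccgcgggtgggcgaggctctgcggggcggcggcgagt
Tef, chr15:81802423-81802722, plus strand, E-box 127 bases before the start: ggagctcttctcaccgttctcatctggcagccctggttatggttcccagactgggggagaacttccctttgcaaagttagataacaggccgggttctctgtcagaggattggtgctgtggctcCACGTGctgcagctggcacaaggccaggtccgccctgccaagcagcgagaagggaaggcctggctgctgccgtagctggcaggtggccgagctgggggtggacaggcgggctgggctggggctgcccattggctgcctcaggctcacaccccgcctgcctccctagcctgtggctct

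Among the clock genes' 13 windows, the E-box was found in 2 (Per1 and Cry1), its variant in 3 (Nr1d1, Cry1 and Cry2), the D-box in 1 (Per3) and the ROR element core in 1 (Arntl). Among all 32851 windows of this length in the table, 7.15% held the E-box, 4.68% the variant, 1.06% the D-box and 6.45% the ROR element core. A match describes the letters of a window and not a bound site. Nfil3 and Tef are no members of the 10 genes and stand here as a D-box repressor and a D-box activator. A further Tef window holds an E-box 138 bases before its start.

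A short check of the arrays precedes the values. Pan-epithelial markers read high on every array (mean of 8 genes between 13.57 and 13.92), the 9 stromal and smooth muscle, 4 endothelial and 4 neural and glial markers all lay under a mean of 4, and lymphocyte and myeloid markers were present at levels that differed between mice. The 3 Sox9 probe sets did not go the same way. One read 2.44, 2.75 and 2.42 in the mutants and 7.61, 5.96 and 5.84 in the wild types, without overlap (difference -3.93 ± 0.48, SE, n = 3 each; limma adjusted p = 0.188). Another read 5.33, 6.34 and 5.76 in the mutants and 6.23, 5.38 and 2.68 in the wild types, with overlap and the higher mean in the mutants (difference 1.05 ± 0.88, SE, n = 3 each; limma adjusted p = 0.999). The third read 3.16 to 3.53 and was under the filter described next. The labels do not say which part of Sox9 was deleted, so neither probe set is known to lie within it. Y-linked Eif2s3y read 10.1 on WT 1 and WT 2 and between 2.84 and 2.95 on the other arrays. The 3' minus 5' difference of Gapdh, a measure of RNA integrity, was 1.75 on WT 3 and between 0.37 and 0.91 elsewhere. In these bulk samples fewer cells of a type and less RNA per cell cannot be told apart.

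Of the 23 clock probe sets, 13 averaged 4 or more over the 6 arrays and were tested, which covers 9 of the 10 genes; Per1 and 9 further probe sets of other members lay under that filter. In limma 0 of the 13 were called (adjusted p = 0.999 for each), and 1, of Per2, had an unadjusted p under 0.05. Over all 18108 probe sets tested, 0.0110% were called and 3.62% had an unadjusted p under 0.05. The median difference KO minus WT of the 13 was -0.21, beside 0.03 over all probe sets, with 9 negative and 4 positive. Clock counts 4 times among the negative ones and Dbp 2 times; with 1 probe set a gene, 5 were negative and 4 positive, with a median of -0.10. The interval of several members is wide, so these arrays do not show that the genes were alike in the groups.

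**Figure D1:**
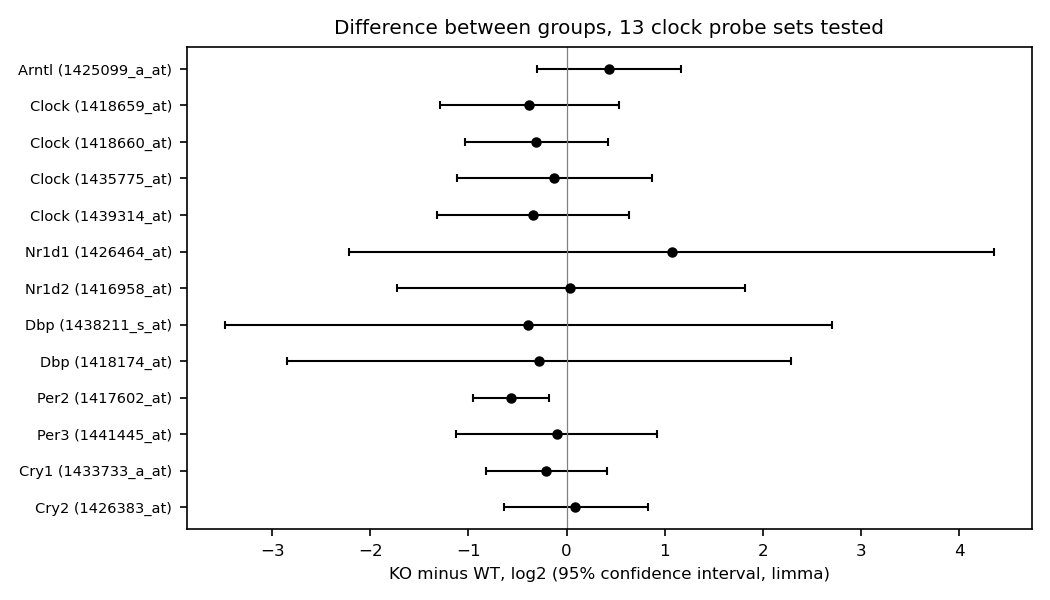
KO minus WT on the log2 scale for the 13 clock probe sets that were tested, with limma's 95% confidence intervals (points are differences, n = 3 mice a group). The intervals of Nr1d1 (-2.22 to 4.35) and Dbp (-3.48 to 2.70 on the brighter probe set) are the widest, and that of Per2 (-0.95 to -0.18) lies below 0 before adjustment.

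The wide intervals go with mice that differed within a group. Of the 6 mice, WT 1 and KO 2 had the lowest Dbp, Nr1d1, Nr1d2 and Per3 and the highest Arntl, so the mice that stood apart were 1 wild type and 1 mutant. Over the 6 arrays the brightest probe set of Dbp spanned 4.10 log2 units, that of Nr1d1 5.48 and that of Nr1d2 2.80. Of all probe sets tested, 1.10%, 0.431% and 3.43% spanned at least as much. Arntl spanned 1.15, which 32.2% of probe sets reached.

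Arntl encodes the partner of CLOCK and is the activator whose RNA cycles. It read 8.41, 8.66 and 8.20 in the mutants and 8.58, 7.87 and 7.52 in the wild types. WT 2 and WT 3 lay below all mutants, while WT 1 lay among them. The difference was 0.43 ± 0.31 (SE, n = 3 each; limma adjusted p = 0.999), and it ran from 0.20 without WT 3 to 0.73 without WT 1. A further Arntl probe set read 2.02 to 2.45 and was not tested.

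Clock, the other activator, showed a different mouse apart. On its brightest probe set it read 8.22, 9.49 and 9.62 in the mutants and 9.51, 9.42 and 9.54 in the wild types. KO 1 was the lowest array on all 4 Clock probe sets, which all passed the filter, and the other mice lay close together on the brightest. The difference of -0.38 ± 0.38 (SE, n = 3 each; limma adjusted p = 0.999) became 0.06 without KO 1. Npas2, which can replace CLOCK as the partner of ARNTL, averaged 7.55 ± 0.14 over the mutants and 7.46 ± 0.11 over the wild types (SD, n = 3 each). It was lowest on WT 1 (7.33) and highest on KO 2 (7.67), so it did not set these 2 mice apart together.

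Nr1d1 encodes REV-ERB alpha, the repressor of Arntl. It read 7.09, 6.35 and 8.40 in the mutants and 2.92, 7.89 and 7.82 in the wild types. The groups overlapped, with WT 1 far below every other mouse and KO 2 next to it. The 2.92 of WT 1 lies within the range of the array medians (2.91 to 2.99), near the floor of dim probe sets. How far WT 1 lies below the others is therefore uncertain. The difference of 1.07 ± 1.37 (SE, n = 3 each; limma adjusted p = 0.999) turned to -0.58 without WT 1.

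Nr1d2, which encodes the related receptor REV-ERB beta, placed the mice in much the same way. It read 9.07, 8.87 and 9.94 in the mutants and 7.52, 9.90 and 10.32 in the wild types. Again WT 1 was lowest and KO 2 next. The difference was 0.04 ± 0.74 (SE, n = 3 each; limma adjusted p = 0.999), and -0.82 without WT 1 or -0.28 without KO 3. Its dim probe set stayed between 2.18 and 2.23.

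Dbp, the D-box activator whose RNA swings widely over the day in many tissues, split the mice most plainly. On the brighter probe set it read 7.90, 4.99 and 7.80 in the mutants and 4.62, 8.54 and 8.72 in the wild types. The dimmer probe set read 6.26, 3.36 and 5.75 in the mutants and 3.39, 6.02 and 6.79 in the wild types, with 3.36 and 3.39 near the floor. Both probe sets put KO 2 and WT 1 well below the other 4 mice, which read 7.80 to 8.72 on the brighter. The differences were -0.39 ± 1.29 and -0.28 ± 1.07 (SE, n = 3 each; limma adjusted p = 0.999 for both). The first turned to 0.56 without KO 2, 0.23 without WT 2 and 0.32 without WT 3.

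**Figure D2:**
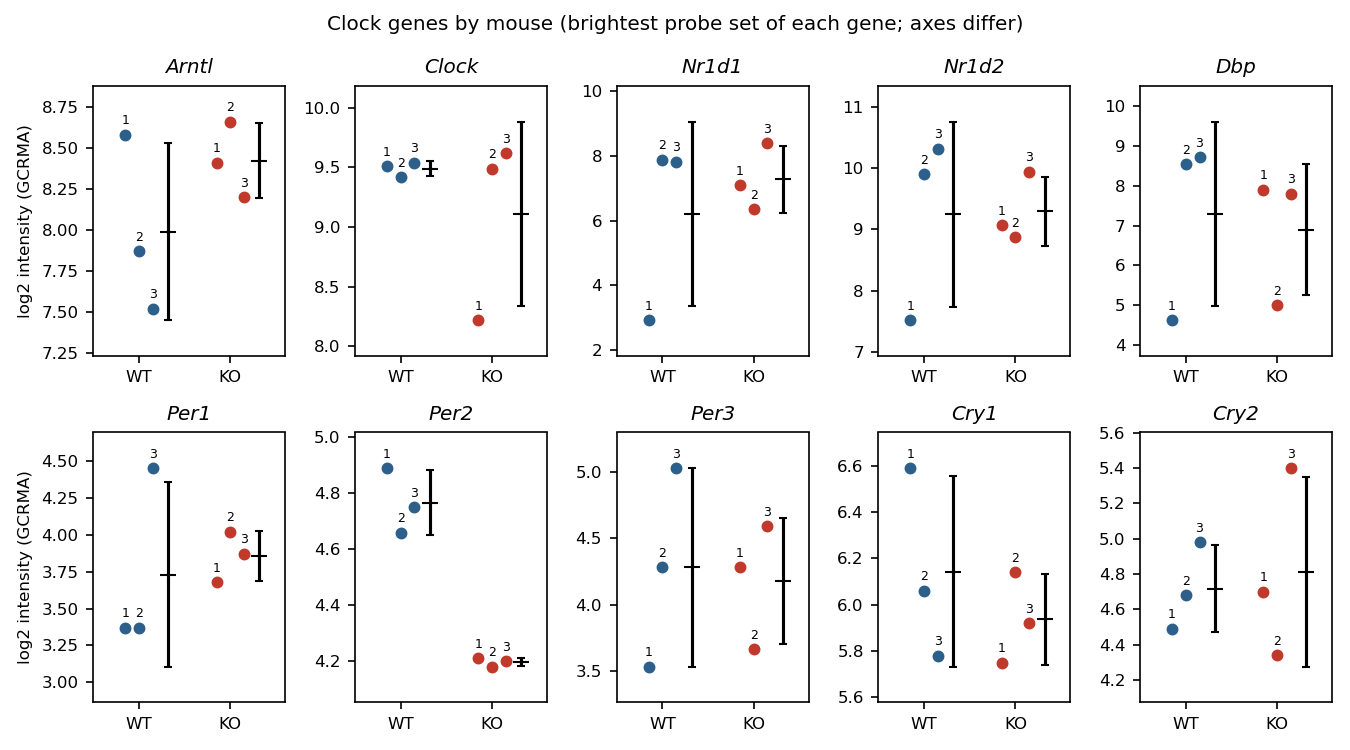
Log2 intensity of the brightest probe set of each of the 10 clock genes in each mouse (points, numbered by replicate; blue WT, red KO), with the group mean and SD as the black bar (n = 3). WT 1 and KO 2 lie lowest for Dbp, Nr1d1, Nr1d2 and Per3 and highest for Arntl; the groups part without overlap for Per2.

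Per2, a repressor of the loop, was the one tested member whose groups did not overlap. It read 4.21, 4.18 and 4.20 in the mutants and 4.89, 4.66 and 4.75 in the wild types. Every mutant lay below every wild type, by a difference of -0.57 ± 0.16 (SE, n = 3 each; limma unadjusted p = 0.0105, adjusted p = 0.999), which stayed between -0.62 and -0.51 with 1 array left out. Over all probe sets tested, 4.03% had all mutants below all wild types, 5.09% had them above, and 9.12% did not overlap in either direction, so 1 of 13 is near the background. The KO arrays spanned 0.03 and all 6 arrays 0.71, at a mean of 4.48, close to the filter. The other Per2 probe sets read 2.05 to 2.22 on every array.

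Per3, a period gene that is strongly rhythmic in many tissues, followed Dbp at a lower intensity. On its 1 tested probe set it read 4.28, 3.66 and 4.59 in the mutants and 3.53, 4.28 and 5.03 in the wild types. Its lowest mice were WT 1 and KO 2, whose readings lie under 4 and near the floor. Its mean over the arrays, 4.23, is close to the filter. The difference was -0.10 ± 0.43 (SE, n = 3 each; limma adjusted p = 0.999), and 0.16 without KO 2 or 0.27 without WT 3. The other 5 Per3 probe sets lay between 2.01 and 3.29.

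Per1, the period gene that also answers to glucocorticoids and cAMP, was under the filter. It read 3.68, 4.02 and 3.87 in the mutants and 3.37, 3.37 and 4.45 in the wild types. The WT mice lay on both sides of the mutants.

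Cry1 and Cry2 encode the cryptochromes, the stronger repressors of CLOCK and ARNTL. Cry1 read 5.75, 6.14 and 5.92 in the mutants and 6.59, 6.06 and 5.78 in the wild types. Its highest mice were WT 1 and KO 2, the opposite of their place for Dbp. The difference was -0.21 ± 0.26 (SE, n = 3 each; limma adjusted p = 0.999), and 0.02 without WT 1. Cry2 read 4.70, 4.34 and 5.40 in the mutants and 4.49, 4.68 and 4.98 in the wild types. KO 2 and WT 1 were its lowest mice. Its difference was 0.09 ± 0.31 (SE, n = 3 each; limma adjusted p = 0.999), and -0.20 without KO 3 or -0.02 without WT 1.

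To place the mice relative to each other, each gene was centred on its mean over the 6 arrays and the mean of Nr1d1 and Dbp was subtracted from Arntl. This Arntl contrast was -0.38, 1.71 and -1.19 in the mutants and 3.53, -1.63 and -2.04 in the wild types. The order from high to low was WT 1, KO 2, KO 1, KO 3, WT 2 and WT 3. The 3.53 of WT 1 takes in its Nr1d1 reading of 2.92, near the floor, and was 2.85 with Dbp alone. The groups overlapped fully: the mutants lay between the highest and the lowest wild type, with means of 0.05 ± 1.49 and -0.05 ± 3.10 (SD, n = 3 each). The difference between the groups was 0.10, ran from -0.90 without WT 3 to 1.88 without WT 1, and has no test, since the genes were chosen for their link to the cycle. In all 6 ways of forming the contrast WT 1 and KO 2 held the highest 2 places. These ways included Dbp alone, Nr1d1 alone, all period and REV-ERB genes with Dbp, averaged probe sets and quantile normalization. Both mice had the highest Arntl and the lowest Nr1d1 and Dbp, so a contrast of those genes had to put them first. Their lead is therefore no separate support.

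**Figure D3:**
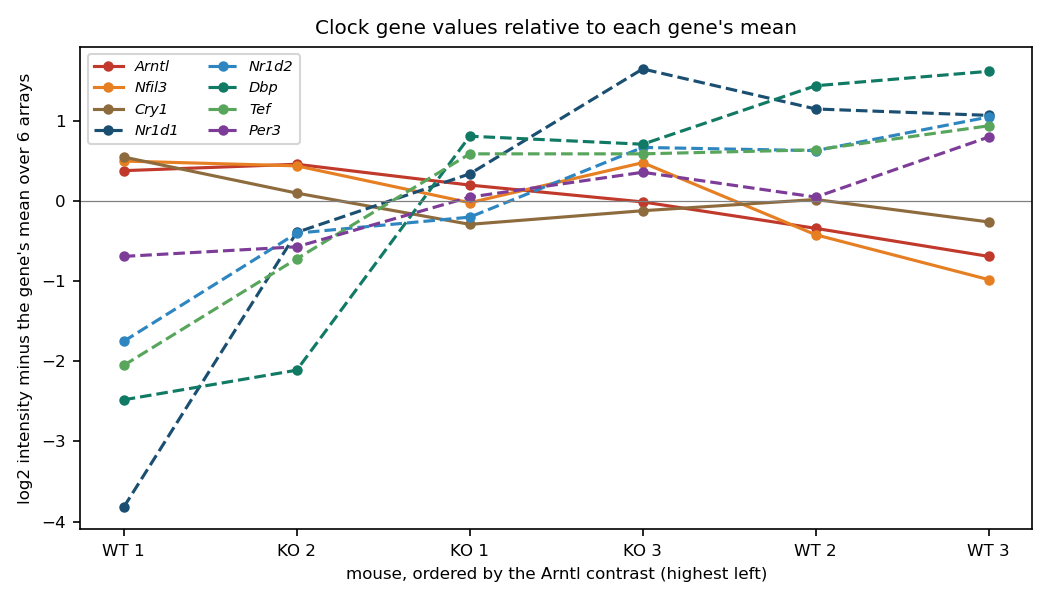
Log2 intensity minus each gene's mean over the 6 arrays, with the mice ordered by the Arntl contrast from WT 1 to WT 3 (solid lines Arntl, Nfil3 and Cry1; dashed lines Nr1d1, Nr1d2, Dbp, Tef and Per3). Values of WT 1 and KO 2 lie below 0 for every dashed gene and above 0 for every solid one; Nr1d1 on WT 1 stands at -3.82.

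Across the 6 mice Arntl ran against the REV-ERB, Per3 and Dbp values, although no relation passed after adjustment over the 9 genes set against it. For Nr1d2 Pearson's r was -0.81 (exact permutation p = 0.0417, adjusted p = 0.183) and Spearman's rho -0.89 (exact permutation p = 0.0333, adjusted p = 0.150; n = 6). For Per3 r was -0.87 (exact permutation p = 0.0306, adjusted p = 0.183) and rho -0.77 (exact permutation p = 0.103, adjusted p = 0.245). Without WT 2 and WT 3, the mice farthest from the Arntl median, r was -0.73 for Nr1d2 and -0.95 for Per3. Neither therefore rests on those mice. The Per3 readings of WT 1 (3.53) and KO 2 (3.66) lie near the floor, so its r is less certain.

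The values of r were nearer 0 for Nr1d1, Cry1, Cry2, Per1 and Clock. Nr1d1 gave an r of -0.61 (exact permutation p = 0.201, adjusted p = 0.435) and a rho of -0.71 (exact permutation p = 0.136, adjusted p = 0.245), with r at -0.69 without WT 2 and WT 3. Cry1 was the one positive relation, at r = 0.54 (exact permutation p = 0.276, adjusted p = 0.435; rho 0.54, exact permutation p = 0.297; r 0.59 without WT 2 and WT 3). For Cry2, Per1 and Clock r was -0.52, -0.43 and -0.22 (adjusted p of the exact permutation test 0.435, 0.484 and 0.749), with rho at -0.71, -0.26 and -0.26 (exact permutation p = 0.136, 0.658 and 0.658). Without WT 2 and WT 3 r was -0.97, -0.12 and 0.09, so those of Per1 and Clock did not hold. Dbp and Per2 fell into separate clusters of mice, Dbp into WT 1 with KO 2 against the rest and Per2 into the genotypes, by a rule set after the data were seen, so no r over all mice is given for them. Their exact permutation tests over the 6 mice were among the 9 adjusted over, and neither passed (adjusted p of r 0.183 for Dbp and 0.484 for Per2; adjusted p of rho 0.150 and 0.639).

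The relations were also computed within the groups, where the Per3 readings near the floor enter again. Taken as deviations from the group means, Arntl gave r = -0.97 with Nr1d2, -0.97 with Per3, -0.94 with Nr1d1, -0.92 with Dbp and 0.93 with Cry1. For Per1 r was -0.62 (exact permutation p = 0.528), for Clock -0.01 (exact permutation p = 0.972) and for Per2 0.64 (exact permutation p = 0.472), so Per2 turned from its negative sign over all mice and Clock lay nearer 0. With exact permutation inside each group (36 pairings) the adjusted p was 0.10 for Nr1d2, Per3, Nr1d1 and Dbp, 0.10 for Cry2 (r -0.71) and 0.125 for Cry1. The smallest unadjusted p was 0.0278, the lowest that 36 pairings allow. The adjusted p could fall under 0.05 only if most of the 9 genes reached it, so this test could hardly pass. The wild type with the most Arntl, WT 1, had the least Dbp, Nr1d1, Nr1d2 and Per3, and WT 3, with the least Arntl, had the most Dbp, Nr1d2 and Per3. Among the mutants KO 2 had the most Arntl and the least Dbp, Nr1d1, Nr1d2 and Per3.

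**Figure D4:**
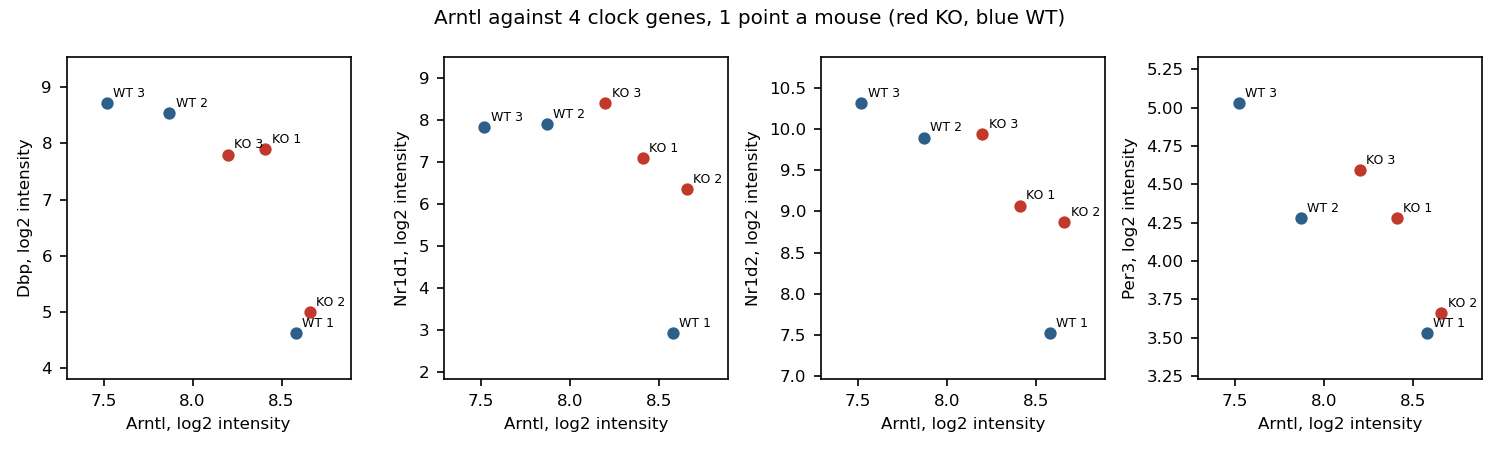
Log2 intensity of Dbp, Nr1d1, Nr1d2 and Per3 against Arntl, 1 point a mouse (red KO, blue WT). WT 1 and KO 2 sit together at high Arntl (8.58 and 8.66) and low Dbp (4.62 and 4.99), and WT 3 lies at the opposite corner of each panel but that of Nr1d1, where KO 3 is highest (8.40).

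Of 32 further genes of the clock, in lists of partners, repressors, D-box factors, protein turnover and outputs, 28 were on the array under 1 symbol and 19 passed the filter. In limma 0 of the 19 were called in either direction and 0 had an unadjusted p under 0.05, with 9 positive and 10 negative and a median difference of -0.02, beside 0.03 over all probe sets.

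Of the 2 D-box factors outside the 10 that were tested, Tef repeated the split of the mice and Nfil3 did so in part. Tef, a D-box activator like Dbp, read 6.02, 4.70 and 6.01 in the mutants and 3.37, 6.07 and 6.37 in the wild types. Its lowest mice were WT 1 and KO 2, as for Dbp, and the 3.37 of WT 1 is near the floor. Nfil3, the D-box repressor, read 7.48, 7.94 and 7.97 in the mutants and 7.99, 7.07 and 6.52 in the wild types. WT 1 was its highest mouse and WT 3 its lowest, as for the contrast, but KO 3 (7.97) lay just above KO 2. The r with the contrast was -0.98 for Tef and 0.71 for Nfil3. Their differences were 0.31 and 0.60 (limma adjusted p = 0.999 for both), and Hlf was under the filter.

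Among the repressors Bhlhe40, which competes for E-boxes, read 8.97 to 9.20 in KO and 9.11 to 10.66 in WT (difference -0.81, limma adjusted p = 0.999), with the highest value on WT 3. Cipc, which inhibits CLOCK, differed by -0.49. Timeless, placed on the same list, differed by 0.27, and a repressor role for it is not shown here. Bhlhe41 and Ciart lay under the filter, as did Rora, Rorb and Arntl2. In the turnover list the kinase genes Csnk1e (0.37), Csnk2a1 (0.18) and Gsk3b (-0.31) and the ubiquitin ligase gene Fbxw11 (-0.16) had the smallest p, each at a limma adjusted p of 0.999. KO 1 was the lowest mouse for Gsk3b (8.05) and Fbxw11 (11.69), as it was for Clock.

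Genes regarded as outputs of the clock in other tissues did not follow the contrast closely. Nampt, of NAD synthesis, differed by -0.26, the deubiquitinase gene Usp2 by -0.14, the mitotic kinase gene Wee1 by 0.15 and the transferrin receptor gene Tfrc by -0.16 (limma adjusted p = 0.999 for each). Their r with the Arntl contrast over the 6 mice lay between -0.24 for Usp2 and 0.41 for Wee1. The r of Alas1 and Leo1, also tested, is not given here.

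Nutrient transport genes known to be rhythmic in the intestine were lowest as a list on WT 1. All 9 passed the filter, 0 were called in limma and 1 had an unadjusted p under 0.05, Apoa4 (difference 0.82, adjusted p = 0.999), with a median difference of -0.02. The mean level of the list was 11.33, 11.60 and 11.93 in the mutants and 10.88, 12.21 and 11.70 in the wild types. The peptide transporter gene Slc15a1 came closest to the split seen for Dbp: it read 10.48, 8.75 and 10.12 in the mutants and 8.53, 10.51 and 10.27 in the wild types, with KO 2 and WT 1 lowest. The fructose transporter gene Slc2a5 likewise had its lowest values on WT 1 (7.83) and KO 2 (8.65). Both were picked from the list after their values were seen. Apob also had WT 1 lowest and KO 2 next. Slc5a1, Slc2a2 and Apoa4 were lowest on WT 1, but KO 2 was not next. Mttp, Abcb1a and Slc9a3 were lowest on KO 1, so the list as a whole did not repeat the split.

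The genes whose pattern was most like the Arntl contrast were ranked among 3436 genes outside the 10 that passed the filter and spanned at least 1 log2 unit, by Pearson's r over the 6 mice. The lowest r belonged to Slc5a4a (-0.998), Slc25a36 (-0.986), Tef (-0.978), Crebrf (-0.969) and Slc5a4b (-0.967). Slc5a4a and Slc5a4b are genes of the sodium-glucose cotransporter family, and Slc5a4a read 8.91, 8.09 and 9.36 in the mutants and 7.08, 9.58 and 9.76 in the wild types. The highest r belonged to Cap2 (0.988), Pla2g4c (0.962), Fem1a (0.910), Psmd13 (0.902) and Pfdn6 (0.890), and Pla2g4c, of the cytosolic phospholipase A2 family, read 5.43, 7.81 and 6.19 in the mutants and 10.1, 5.31 and 4.01 in the wild types. With 6 mice, of which WT 1 and KO 2 lie far from the rest, these r values describe the ranking and carry no p.

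Other features of the arrays moved with WT 1 in part. The mean level of 7 T and NK lymphocyte markers was 5.73 on WT 1 and 7.62 on KO 2, against 6.90 to 8.16 on the other 4 mice. For the 6 myeloid markers, 5 of which passed the filter, it was 5.54 on WT 1 and 6.24 on KO 2. Elsewhere it lay between 6.66 and 7.47. The myeloid mean leans on Csf1r, which read 2.87 on WT 1 and 7.12 on KO 2. Cd68, Adgre1 and Itgax were also lowest on WT 1. Cd14 was highest there (7.56), and Lyz2 (14.02) lay above all mutants there. The 8 villus enterocyte markers averaged 13.35 on WT 1, the lowest of the 6 mice, and 13.94 on KO 2, above all WT mice. The means of these lists were therefore lowest on WT 1, as were Dbp and Nr1d1. KO 2 was the next lowest mouse on the myeloid list, as it was for Dbp. By list means it lay among the other 4 on the lymphocyte and enterocyte lists. The enterocyte mean leans on Ada, which read 11.25, 10.28 and 6.88 in the mutants and 7.19 to 7.74 in the wild types. Of the other enterocyte markers, Fabp2, Apoa1 and Krt20 were lowest on KO 2. Lct and Anpep had KO 2 next to lowest after WT 1, while Alpi was highest on KO 2 and Fabp1 next to highest. The part of those cells in the clock values was not tested. The 5 crypt base markers read 10.52 on WT 1 and 10.33 on KO 2, beside 9.46 to 10.51 on the other mice.

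**Figure D5:**
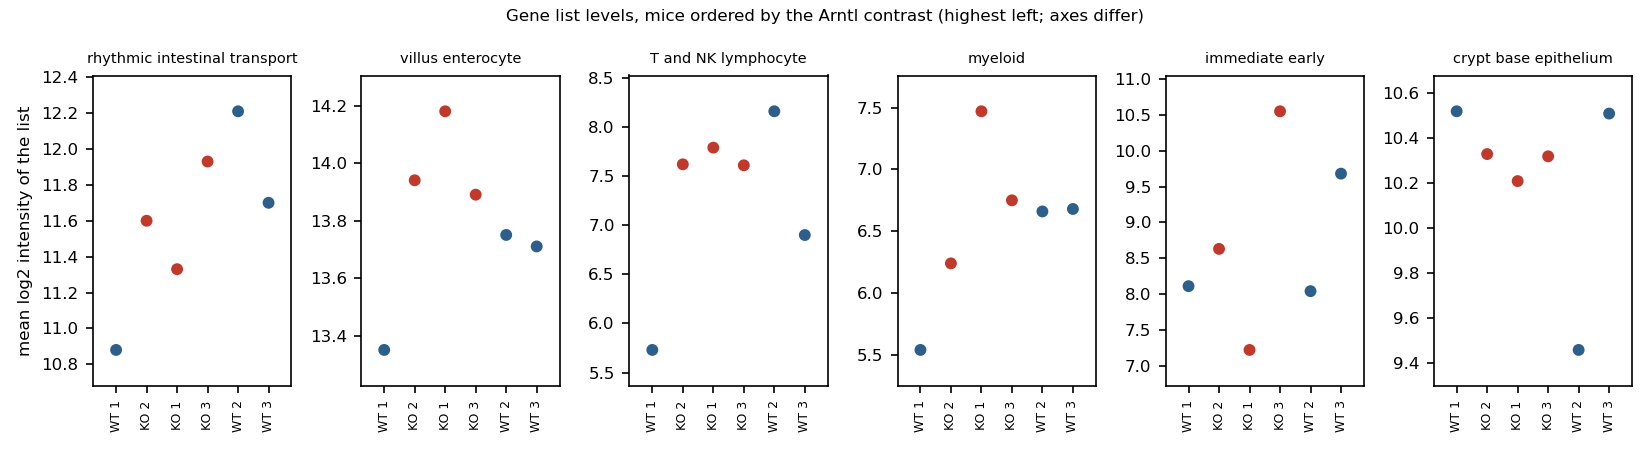
Mean log2 intensity of 6 gene lists in each mouse, ordered by the Arntl contrast from WT 1 to WT 3 (red KO, blue WT). WT 1 is lowest for the transport, enterocyte, lymphocyte and myeloid lists, and KO 2 is next lowest for the myeloid list (6.24). The myeloid means lean on Csf1r and the enterocyte means on Ada. The immediate early list peaks on KO 3 (10.55).

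Sex-linked signal and RNA integrity also differed between the mice. WT 1 and WT 2 carried the Y-linked signal and lay at 3.53 and -1.63 of the contrast, and KO 2, at 1.71, did not carry it. The Gapdh 3' minus 5' difference was 0.61 on WT 1 and 0.58 on KO 2, between those of KO 3 (0.37) and WT 2 (0.65). It was highest on WT 3 (1.75), the mouse lowest on the contrast (-2.04), which also had the highest difference for Actb (2.65, beside 1.22 to 1.71 elsewhere). The part of RNA integrity in the clock values was not tested. Since only WT 1 and WT 2 carried the Y-linked signal, a term for it leaves the mutants set against WT 3 alone. In that fit the differences of Nr1d1 (-0.54), Nr1d2 (-1.03), Cry1 (0.16) and Cry2 (-0.17) changed sign. That of Tef turned too (-0.79), and that of Arntl became 0.91. These values rest on 1 wild type, the mouse with the highest 3' minus 5' differences.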

How the data were processed

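Jejunal crypt RNA of 3 KO and 3 WT mice was hybridised to 1 single-colour Affymetrix array each. The authors deposited log2 intensities of 45101 probe sets; per the submitters' processing notes GCRMA and limma were used, and versions and settings are not stated there. This method normalizes arrays together and can draw dim probe sets toward a floor, which may compress differences there. Column medians lay between 2.91 and 2.99. Arrays have no read depth, and 3 mice a group limit the precision.

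After 64 array controls were left out, the 18108 probe sets averaging 4 or more entered a limma fit (version 3.58.1, R 4.3.3; lmFit, eBayes, KO against WT; 4 residual and 2.59 prior degrees of freedom; two-sided, Benjamini-Hochberg over all of them, threshold 0.05). Names came from the platform annotation where it gave 1 symbol (34945 probe sets; 34741 matched RefSeq gene identifiers, 0 symbols changed). A gene with several probe sets is represented by the brightest. The fit was tested on simulated data.

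The members and gene lists were chosen with earlier results of these data known. Named are all clock probe sets, up to 4 genes of smallest p in each further list and the 5 genes of highest and of lowest r with the Arntl contrast. Exact permutation tests (two-sided) used all 720 pairings of 6 arrays. Separate clusters were defined, after the data were seen, as a gap of over 50% of the range with at least 2 mice on each side. Alternatives were a replicate block, other filters, normalizations, priors and weights, averaged probe sets, each array left out and, added after seeing the data, a term for Y-linked signal. Mice with equal numbers are not said to share a litter, and their deviations from the group means correlated at -0.05, -0.29 and 0.03.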

Additional observations from a re-analysis of the deposited data

How the results depend on the processing

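The count of clock probe sets called in limma was 0 under each of the 14 alternatives, and so was that of the wider clock lists. Over all probe sets the count of 2 became 0 with a replicate block, 0 with no filter and 1 with a filter at 6. It was 4 with quantile normalization and 11 under array weights. With 1 array left out it ran from 0 (without WT 1 or WT 2) to 16 (without WT 3), and the cause was not tested. Among the alternatives, the term for Y-linked signal leaves WT 3 as the only wild type compared, so its count of calls says little. The correlations given above show no pairing by number, and mice of unequal numbers correlated between -0.10 and 0.16. So few values cannot exclude such a pairing. The block called 0 of the clock probe sets.

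Directions of single clock genes were less stable, and none of these values passed in limma. With 1 array left out the difference ran from -0.48 to 0.27 for Per3, -0.39 to 0.02 for Cry1, -0.20 to 0.33 for Cry2, -0.63 to 0.06 for Clock, -0.58 to 1.91 for Nr1d1, -0.82 to 0.58 for Nr1d2 and -1.73 to 0.56 for Dbp; those of Arntl and Per2 kept their sign. With the Y-linked term, which sets the mutants against WT 3 alone, 4 of these 7 also turned: Cry1 (0.16), Cry2 (-0.17), Nr1d1 (-0.54) and Nr1d2 (-1.03). The r of Per1 with Arntl ran from -0.76 to 0.40, turning without WT 3. The difference of the Arntl contrast between the groups ran from -0.90 to 1.88 with 1 array left out. With other genes, probe sets or normalization it ran from -0.63 to 0.83, beside a pooled SD between mice of 2.43. Leaving out 1 of 3 mice cannot move the difference by as much as that SD, so the comparison with it does not measure stability. WT 1 and KO 2 led the contrast whichever genes, probe sets or normalization formed it. Both had the highest Arntl and the lowest Nr1d1 and Dbp. Their lead was thus fixed for contrasts of those genes and does not measure stability. With 3 mice a group the intervals were wide, from -1.13 to 0.92 for Per3 and from -0.64 to 0.83 for Cry2, and Per1 had no test.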

Other observations

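Lists that can move with handling and hormones were read beside the clock genes. The 10 immediate early genes, which respond within minutes to stress and tissue handling, had a mean level of 7.22, 8.63 and 10.55 in the mutants and 8.11, 8.04 and 9.68 in the wild types. KO 3 and WT 3 were highest, and WT 1 and KO 2, which led the Arntl contrast, lay between. Fos read 10.61 on KO 1 and 13.94 on KO 3 within the same genotype. In limma 0 of the 10 genes were called and 0 had an unadjusted p under 0.05.

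The 8 glucocorticoid-responsive genes, of which 7 passed the filter, gave 0 calls and 1 unadjusted p under 0.05, with 6 positive, 1 negative and a median of 0.08. The mean level of the list was 8.03, 8.01 and 8.94 in the mutants and 7.20, 7.34 and 8.27 in the wild types, lowest on WT 1. Pdk4, a kinase that restrains glucose oxidation in fasting, read 8.03, 8.35 and 9.29 in the mutants and 4.96, 5.21 and 7.87 in the wild types (difference 2.55, limma adjusted p = 0.999). Every mutant lay above every wild type, as in 5.09% of all probe sets tested. WT 3 lay nearer the mutants. Fkbp5, a cochaperone gene induced by glucocorticoids, read 8.67, 10.55 and 11.08 in the mutants and 8.04, 7.09 and 9.50 in the wild types (difference 1.89, limma adjusted p = 0.999), and the groups overlapped. WT 1 and WT 2, the lowest mice for both genes, were those that carried Y-linked signal. Once it entered as a term, which leaves WT 3 as the only wild type compared, the differences were 0.69 for Pdk4 and 0.60 for Fkbp5.

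Other genes of this list placed the mice more as the clock genes did. Tsc22d3, the gene of the glucocorticoid-induced leucine zipper protein, read 8.77, 8.64 and 8.95 in the mutants and 8.34, 8.82 and 9.48 in the wild types, with WT 1 lowest and KO 2 next (r with the Arntl contrast -0.84). Errfi1, an inhibitor of EGF receptor signalling, read 8.62, 8.19 and 8.98 in the mutants and 7.64, 8.17 and 8.95 in the wild types (r -0.80). Here WT 1 was lowest, and WT 2 and KO 2 followed. Sgk1, a kinase gene induced by glucocorticoids and picked after its values were seen, read 10.69, 8.81 and 10.42 in the mutants and 8.98, 10.33 and 10.37 in the wild types. KO 2 and WT 1 lay well below the other 4 mice, the same split as for Dbp. The differences were -0.09, 0.34 and 0.08 (limma adjusted p = 0.999 for each), and the part of glucocorticoids in the clock values was not tested.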
